A study of Mus musculus with 23 samples.

Results

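Macrophages are the tissue-resident phagocytes of muscle and fat, and 10 genes that are widely used to mark them were followed here across both tissues of mice with pancreatic tumors. The genes were chosen by name and taken from the tables by symbol. They are Adgre1, Cd68, Csf1r, Cd163, Mrc1, Trem2, Cd14, Msr1, Itgax and Gpnmb. These were 10 of the 17194 genes listed in either tissue, and all 10 were among the 16962 genes listed for adipose tissue. For quadriceps 12831 genes were listed, and 8 of them were members, since Trem2 and Msr1 were not analysed here in muscle. All genes of a table passed the filter on low counts, so every listed member was tested.

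The mice were male C57BL/6J animals of 8 weeks at surgery with an intact Il6 gene of their own. The no tumor group had sham surgery, the KPC group received cells of a mouse pancreatic cancer line in the pancreas, and the KPC IL6KO group received cells of the same line in which CRISPR/Cas9 had been used to edit Il6. Each tumor line was a single clone, so that a difference between the tumor groups can also be a difference between clones. All mice were euthanized when the KPC mice had wasted. Sequenced were quadriceps RNA of 3 no tumor mice and of 4 mice in each tumor group, and RNA of the epididymal fat pad of 4 mice in each of the 3 groups. The fat libraries carry other sample numbers than the muscle libraries and were counted in a separate table, so levels are not compared between tissues. The comparisons ask how the marker genes differ between tumor-bearing and tumor-free mice, and between tumors with and without an intact Il6 gene.

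Resident macrophages are maintained by Csf1 and Il34 through the receptor Csf1r, and circulating monocytes enter a tissue and mature there after injury or inflammation. Adgre1 encodes F4/80, the classical surface marker of mouse macrophages. Cd163 takes up hemoglobin bound to haptoglobin, and Mrc1, the mannose receptor CD206, takes up glycoproteins. Both are typical of resident and alternatively activated cells. Msr1 is a class A scavenger receptor that binds modified lipoproteins, Trem2 is a lipid-sensing receptor that signals through Tyrobp, and Cd14 is the co-receptor that passes lipopolysaccharide to Tlr4. Itgax encodes the integrin CD11c of dendritic cells and of some macrophages. Cd68 and Gpnmb are glycoproteins of endosomes and lysosomes and mark cells with much lysosomal or lipid content. Such markers are not fully private to macrophages, and in bulk tissue fewer macrophages and less RNA per macrophage cannot be told apart.

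The members lie on 7 chromosomes, with positions given on GRCm38 (mm10) from the GENCODE annotation as the span of the whole gene. Mrc1 spans chr2:14229392-14332057, Itgax spans chr7:128129547-128150657, Trem2 spans chr17:48346401-48354147 and Adgre1 spans chr17:57358691-57483527, all on the plus strand. Gpnmb and Cd163 share chromosome 6, also on the plus strand, with Gpnmb at chr6:49036546-49070929 and Cd163 at chr6:124304656-124330527. On the minus strand lie Msr1 at chr8:39581685-39642673, Cd68 at chr11:69664213-69666153 and Cd14 at chr18:36725067-36726798. Csf1r spans chr18:61100598-61132149 on the plus strand, and 1 of its exons overlaps an exon of Hmgxb3 on the other strand. Whether reads were counted by strand is not given in the sources used here, so reads of that stretch may come from either gene.

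Upstream sequence matched 6 of the 10 members in the RefSeq promoter table (build GRCm38.p6): Mrc1, Gpnmb, Cd163, Itgax, Cd68 and Trem2. The sequences of 3 are printed because these genes moved in different directions in the quadriceps of KPC mice, where Cd68 rose while Itgax and Mrc1 fell. Each sequence is the part of the 250 bases before the RefSeq start that lies outside the gene as annotated by GENCODE, 5′ to 3′ on the gene's own strand. The RefSeq start is 22 bases inside the annotated gene for Mrc1, 3 bases inside it for Itgax and 17 bases before it for Cd68. In the Cd68 and Itgax sequences the capitals mark TGAGTCA, the letters bound by AP-1. In the Mrc1 sequence they mark CTTCCTC, the reverse complement of the PU.1 motif GAGGAAG.

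Cd68 (chr11:69666171-69666420, minus strand): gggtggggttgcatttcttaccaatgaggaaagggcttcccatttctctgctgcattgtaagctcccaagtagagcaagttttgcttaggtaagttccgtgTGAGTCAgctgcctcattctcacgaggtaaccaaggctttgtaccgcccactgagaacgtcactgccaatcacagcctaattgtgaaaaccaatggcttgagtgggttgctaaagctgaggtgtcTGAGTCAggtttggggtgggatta

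Itgax (chr7:128129300-128129546, plus strand): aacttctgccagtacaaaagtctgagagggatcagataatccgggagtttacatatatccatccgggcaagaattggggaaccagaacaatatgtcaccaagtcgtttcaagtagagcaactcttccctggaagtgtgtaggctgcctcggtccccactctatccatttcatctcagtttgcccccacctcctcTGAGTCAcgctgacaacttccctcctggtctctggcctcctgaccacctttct

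Mrc1 (chr2:14229164-14229391, plus strand): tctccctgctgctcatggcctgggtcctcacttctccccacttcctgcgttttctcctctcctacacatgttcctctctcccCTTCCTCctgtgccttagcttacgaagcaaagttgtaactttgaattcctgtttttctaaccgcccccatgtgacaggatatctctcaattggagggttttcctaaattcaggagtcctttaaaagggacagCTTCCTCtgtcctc

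Both strands were searched for 6 short motifs in the 250 bases before the RefSeq start, and positions are given from the first base of a match to the annotated gene start used for the spans above. TGAGTCA stood in the windows of Cd68, at 166 and 41 bases before the gene start, and of Itgax, at 53 bases, and in 4.46% of all 32851 promoters of the table. GAGGAAG stood in those of Mrc1, at 146 and 14 bases, and of Trem2, at 41 bases, against 10.6% of all promoters. The C/EBP motif TTGCNNAA matched once in Cd68 (9.56% of all promoters), and the MITF motif TCACATG once in Mrc1 (3.50%). The letters CACGTG (6.02% of all promoters) and TTCNNNGAA (7.02%) were in none of the 6 windows, and Gpnmb and Cd163 held none of the 6 motifs. Cd68 and Itgax, printed because their levels moved in different directions in muscle, shared the AP-1 letters. A link between letters and levels was not tested. A match describes the letters and does not show that a factor binds there.

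Total counts per library ranged from 19259763 to 74907810 in quadriceps and from 26306377 to 56308545 in adipose tissue. Levels are given as CPM, counts scaled to the TMM-normalized size of the library, and 3 counts, the level not distinguished from 0 by counting error alone, came to between 0.0462 and 0.154 CPM in muscle and between 0.0474 and 0.123 CPM in fat. The biological coefficient of variation was 22.7% in quadriceps and 63.5% in adipose tissue, so differences had to be larger in fat to pass the test. The 12 fat libraries also differed in epididymis RNA: Gpx5, a secretory gene of the epididymis, was at 21347 to 54957 CPM in 7 pads (no tumor 5 and 7, all 4 KPC and KPC IL6KO 6), whereas the 5 remaining pads held 4.69 to 85.8 CPM (no tumor 6 and 8, KPC IL6KO 5, 7 and 8). The 5 pads low in Gpx5 were not free of epididymis RNA. Crisp1, another secretory gene of the epididymis, was at 621 to 14517 CPM in them and at 156 to 5754 CPM in the 7 pads high in Gpx5, while the 10 epididymis genes together came to 865 to 22011 CPM and to 41302 to 89801 CPM. KPC IL6KO 8 held 2402 CPM of 8 skeletal muscle genes, against 11.7 to 16.1 CPM in KPC fat. The median log2 FC of these 8 genes against no tumor was -5.22 in KPC and 3.21 in KPC IL6KO fat. By this measure the no tumor group also lay above the KPC group. Il6 does not check the edit, since the hosts were not edited. It was at 2.02 to 5.30 CPM in KPC fat, at 0.0343 to 4.77 CPM in KPC IL6KO fat and at 0 to 4 counts in no tumor fat.

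Quadriceps of KPC mice held more Cd68, Gpnmb and Cd14 and less Adgre1, Itgax and Mrc1 than that of no tumor mice. To be called, a gene had to pass edgeR's quasi-likelihood test with a Benjamini-Hochberg FDR no higher than 0.05 and an FC no smaller than 1.5. By this rule 3 of the 8 members rose (all genes 26.7%) and 3 fell (all genes 29.0%), while Csf1r and Cd163 were not called. So many genes differed between these groups that the share of members called was near that of all genes. The markers did not move together.

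The lysosomal markers rose most. Cd68 was at 3.05, 2.90 and 3.69 CPM in the 3 no tumor mice and at 26.5, 4.16, 79.5 and 8.58 CPM in KPC mice 1 to 4. Every KPC value was above every no tumor value, with KPC 3 and KPC 1 far above KPC 2 and KPC 4. The difference was 9.32-fold (log2 FC 3.22 ± 0.83 SE, FDR = 0.00456). It was 2.04 on the log2 scale without KPC 3 (FDR = 0.00677), and 1.00 without both KPC 1 and KPC 3 (FDR = 0.0150), so its size but not its direction depended on these mice.

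Gpnmb followed the same mice. It was at 2.20, 2.84 and 3.94 CPM in no tumor muscle and at 17.3, 6.38, 62.7 and 7.15 CPM in KPC muscle, again without overlap and again highest in KPC 3 and KPC 1. The difference was 7.96-fold (log2 FC 2.99 ± 0.74 SE, FDR = 0.00379), 1.80 on the log2 scale without KPC 3 (FDR = 0.00239) and 1.20 without both (FDR = 0.00476). Cd68 and Gpnmb were 2 of the 4 members whose groups did not overlap, both higher in KPC (all genes 32.3%).

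Cd14 was at 1.28, 2.41 and 1.84 CPM in no tumor mice and at 14.6, 3.29, 2.11 and 2.79 CPM in KPC mice. KPC 1 was high, KPC 2 and 4 lay just above the no tumor range and KPC 3 inside it, so the groups overlapped. The call (log2 FC 1.63 ± 0.62 SE, FDR = 0.0362) was lost without KPC 1, where the log2 FC was 0.56 (FDR = 0.133). It was also lost without any 1 of the no tumor mice, with an FDR between 0.054 for no tumor 2 and 0.115 for no tumor 1, and with only the groups compared in the fit (FDR = 0.0670), scaling by library size alone (FDR = 0.0591) or a replicate block (FDR = 0.103).

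Adgre1 and Itgax, surface proteins of macrophages and of CD11c-positive cells, were the other 2 members without overlap, both lower in KPC (all genes 33.0%). Adgre1 was at 2.93, 3.06 and 3.89 CPM in no tumor mice and at 2.16, 1.04, 0.785 and 0.489 CPM in KPC mice. All 4 KPC values were under the no tumor range, the lowest in KPC 4. The level was 2.90-fold lower (log2 FC -1.54 ± 0.41 SE, FDR = 0.00606).

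Itgax was at 0.502, 0.451 and 0.820 CPM in no tumor muscle and at 0.108, 0.188, 0.0818 and 0.151 CPM in KPC muscle. Every KPC value was under every no tumor value, from only 5 to 11 counts a library against 16 to 29. The level was 4.27-fold lower (log2 FC -2.10 ± 0.43 SE, FDR = 0.00103). The calls of Cd68, Gpnmb, Adgre1 and Itgax held in every alternative run and without any 1 library, except that Itgax was not tested where 10 or more counts were asked of each library.

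Mrc1, at 12.6, 10.9 and 13.8 CPM in no tumor mice, was at 11.3, 6.37, 4.99 and 2.88 CPM in KPC mice. KPC 1 lay inside the no tumor range and the other 3 below it. The fall (log2 FC -0.96 ± 0.37 SE, FDR = 0.0380) was no longer called without any 1 of the 3 no tumor mice or of KPC 2, 3 and 4, with an FDR between 0.055 (no tumor 2) and 0.0961 (no tumor 3).

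Csf1r, the receptor on which macrophage survival depends, was at 15.9, 17.6 and 23.8 CPM in no tumor mice and at 18.1, 12.8, 7.02 and 4.23 CPM in KPC mice. Again KPC 1 lay within the no tumor range and the other 3 below. The log2 FC of -0.85 ± 0.39 SE was not called (FDR = 0.0713), whereas it was -1.24 without KPC 1 (FDR = 0.00964). Of 10 alternative runs 4 called the fall of Csf1r, among them the likelihood ratio test (FDR = 0.0456) and DESeq2 (FDR = 0.0499) with all mice. Cd163 was at 5.92, 7.27 and 13.2 CPM in no tumor mice and at 17.8, 10.4, 6.81 and 3.65 CPM in KPC mice. These groups overlapped broadly (log2 FC 0.16 ± 0.53 SE, FDR = 0.804).

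Within the KPC group the mice therefore sorted differently by marker. Adgre1, Csf1r, Mrc1 and Cd163 were each highest in KPC 1, next in KPC 2 and lowest in KPC 4, while Cd68 and Gpnmb were highest in KPC 3. The ratio of Cd68 to Adgre1 counts was 0.947 to 1.04 in no tumor muscle and 0.682 to 0.929 in KPC IL6KO muscle, and 12.3, 3.98, 101 and 17.5 in KPC mice 1 to 4. The ratio does not depend on the scaling of a library. Mrc1 counts were 3.54 to 4.31 times those of Adgre1 in no tumor muscle, 2.57 to 3.83 times in KPC IL6KO muscle and 5.24 to 6.35 times in KPC muscle. Mrc1 and Adgre1 kept closer to each other than Cd68 and Adgre1 did, but the KPC range lay above the others.

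**Figure D1:**
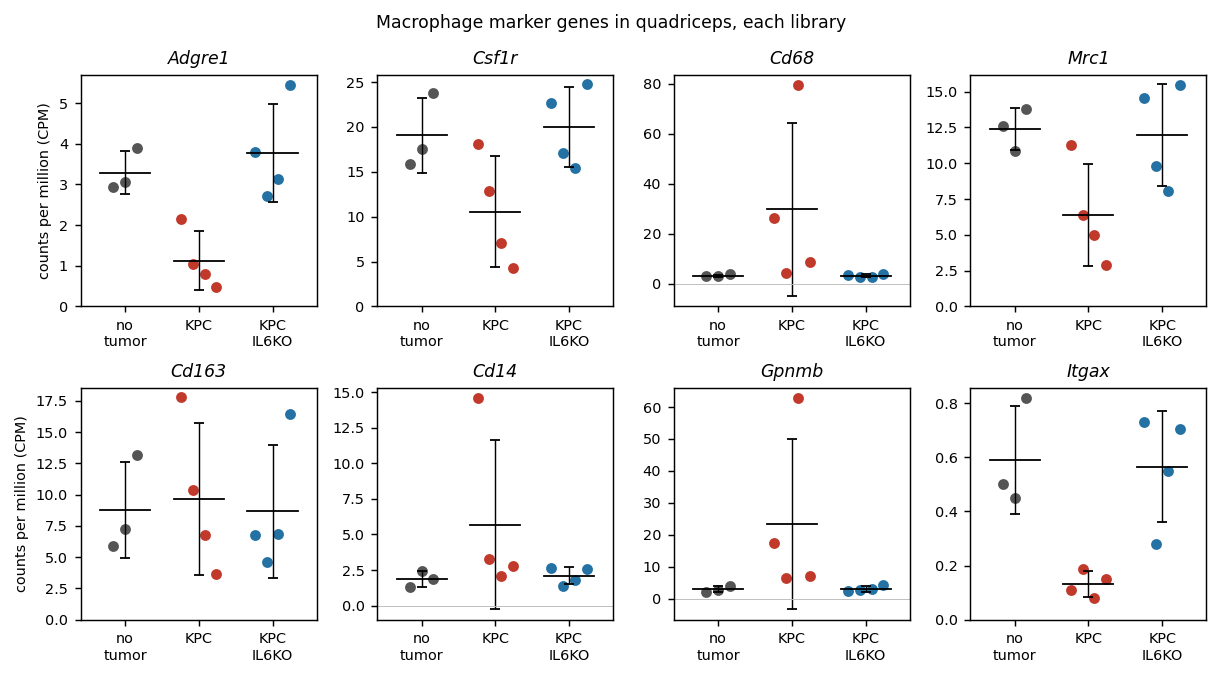
Level of the 8 listed macrophage marker genes in quadriceps, in CPM on a linear axis scaled for each gene, for each mouse (points) with the mean and SD of each group (horizontal line and error bar). Cd68 and Gpnmb lie higher in all 4 KPC mice, Adgre1 and Itgax lower, and KPC IL6KO mice lie with no tumor mice.

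Per kilobase of exon, a scale on which genes can be ranked within a tissue, no tumor quadriceps held most Csf1r (3.31 CPM per kb), then Cd68 (2.56), Mrc1 (1.95), Cd163 (1.61), Cd14 (1.07), Adgre1 (1.02), Gpnmb (0.460) and Itgax (0.123). Neighbours in this order overlapped between mice except Cd68 and Mrc1, Adgre1 and Gpnmb, and Gpnmb and Itgax. KPC IL6KO muscle had the same order. In KPC muscle the order was Cd68 (23.6 CPM per kb), Gpnmb (3.59), Cd14 (3.28), Csf1r (1.83), Cd163 (1.77), Mrc1 (1.00), Adgre1 (0.346) and Itgax (0.0275). Its neighbours overlapped between mice except Adgre1 and Itgax. The place of Gpnmb rested on KPC 3, where it was at 9.63 CPM per kb. In KPC mice 1 to 4 it held place 5, 6, 2 and 3 of the 8 genes, and without KPC 3 its mean was 1.58 CPM per kb, in place 5.

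Compared with KPC IL6KO mice, the 8 members differed in KPC mice in the same directions as against no tumor mice. Both comparisons use the same 4 KPC libraries, and whether they differ from each other was not tested. In KPC IL6KO muscle Cd68 was at 3.47, 2.52, 2.64 and 3.72 CPM, and Gpnmb at 2.40, 2.58, 2.89 and 4.27 CPM, all under the lowest KPC value. Of the 8 members 3 were higher in KPC (all genes 26.4%) and 4 lower (all genes 27.3%). Cd68 was 9.61-fold higher in KPC than in KPC IL6KO (log2 FC 3.26 ± 0.73 SE, FDR = 0.00183), and 2.08 on the log2 scale without KPC 3. Gpnmb was 7.69-fold higher (log2 FC 2.94 ± 0.65 SE, FDR = 0.00176), and 1.76 on the log2 scale without KPC 3.

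Adgre1, at 3.80, 2.72, 3.15 and 5.45 CPM in KPC IL6KO muscle, was 3.36-fold lower in KPC (log2 FC -1.75 ± 0.39 SE, FDR = 0.00183). Itgax, at 0.729, 0.281, 0.551 and 0.703 CPM in KPC IL6KO muscle, was 4.25-fold lower (log2 FC -2.09 ± 0.39 SE, FDR = 0.000580). Neither gene overlapped between the tumor groups. Cd68 and Gpnmb were thus the 2 of 8 members without overlap that were higher in KPC (4009 of all 12831 genes). Adgre1 and Itgax were the 2 that were lower (3946 of all 12831 genes).

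The 3 other calls against KPC IL6KO were less firm, and with only these groups in the fit 2 members were called higher (all genes 24.9%) and 2 lower (all genes 27.7%). Cd14 was at 2.62, 1.39, 1.79 and 2.56 CPM in KPC IL6KO muscle (log2 FC 1.45 ± 0.55 SE, FDR = 0.0347), and the log2 FC was 0.39 without KPC 1 (FDR = 0.25). The call was also lost with only the groups compared (FDR = 0.0576), library size alone (FDR = 0.0504) or a replicate block (FDR = 0.0856). Csf1r was at 22.7, 17.1, 15.4 and 24.8 CPM (log2 FC -0.92 ± 0.36 SE, FDR = 0.0403) and Mrc1 at 14.6, 9.84, 8.09 and 15.5 CPM (log2 FC -0.91 ± 0.35 SE, FDR = 0.0354). Their calls were lost without any of several single mice, with a highest FDR of 0.103 for Csf1r, without KPC 3, and of 0.0964 for Mrc1, without KPC IL6KO 4. Cd163, at 6.79, 4.58, 6.83 and 16.4 CPM, was not called (log2 FC 0.16 ± 0.49 SE, FDR = 0.784).

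Between KPC IL6KO and no tumor quadriceps no member was called (all genes 0%), and none passed an unadjusted p of 0.05 in the quasi-likelihood test either, in which 2.19% of all genes were higher and 4.72% lower. The likelihood ratio test and DESeq2 also called 0 members here. The log2 FC of the 8 members ranged from -0.05 for Mrc1 to 0.21 for Adgre1, and group means were close, for example 3.21 ± 0.419 and 3.09 ± 0.594 CPM for Cd68 (SD, n = 3 and 4). This does not show that the groups were alike beyond the error of these differences, whose SE ran from 0.37 for Mrc1 to 0.76 for Cd68.

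**Figure D2:**
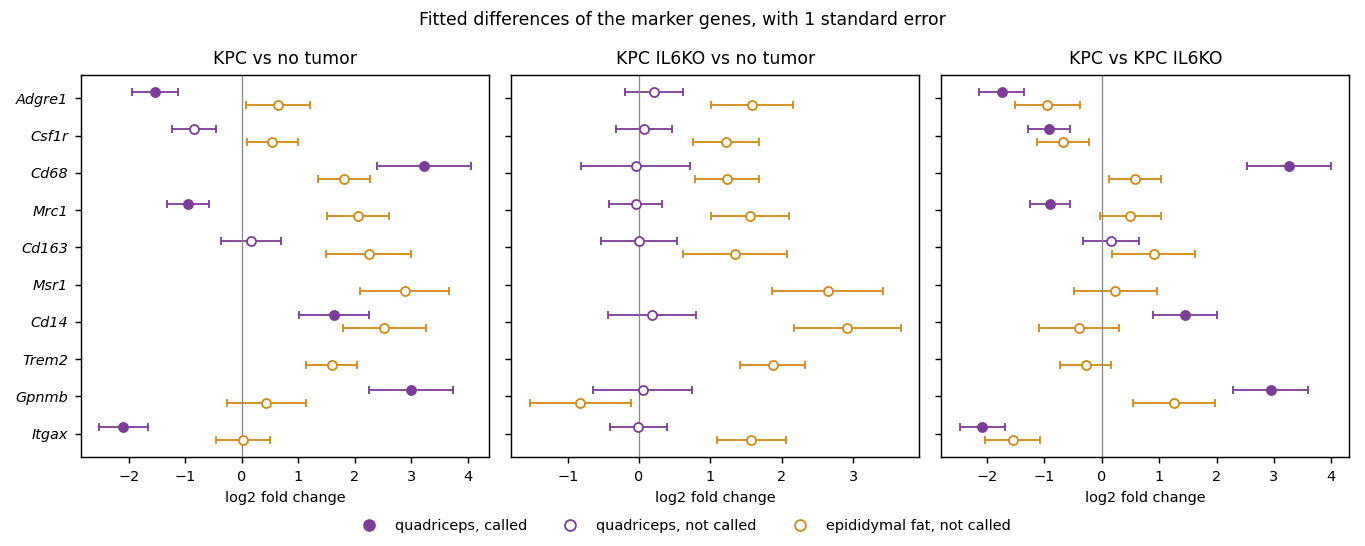
Log2 FC of each marker gene in the 3 comparisons of each tissue, with bars of 1 SE of the quasi-likelihood fit, filled where the gene was called and open where it was not. Called differences stand on both sides of 0 in quadriceps of KPC mice, and no member was called in adipose tissue.

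The ligands and signalling partners of the members were split as well. In quadriceps of KPC against no tumor mice 3 of 11 partner genes rose (all genes 26.7%) and 4 fell (all genes 29.0%). These counts were near the shares of all genes. The median log2 FC of the partners was -0.19 (all genes -0.03). Csf1, the growth factor that Csf1r binds, fell from 14.7, 16.8 and 16.8 CPM to 7.53, 5.19, 5.79 and 3.20 CPM with no overlap (log2 FC -1.56 ± 0.25 SE, FDR = 0.000188), and Il34, the other ligand, fell by 0.78 on the log2 scale (FDR = 0.0145). Syk, a kinase downstream of Tyrobp (-0.72), and the cytokine Tnfsf12 (-0.89), a ligand of Cd163, also fell. Hmox1, the heme oxygenase that works downstream of Cd163, rose from 7.29, 8.94 and 9.22 CPM to 36.7, 32.7, 31.5 and 35.3 CPM (log2 FC 2.01 ± 0.13 SE, FDR = 9.11e-07), a tight rise in all 4 mice. Tlr4 (0.86) and the lipopolysaccharide-binding protein Lbp (0.64), both partners of Cd14, rose. Tyrobp (log2 FC -0.06, FDR = 0.868), Apoe (-0.19), Itgb2 (-0.34) and Hp (1.27, FDR = 0.153) were not called. Hcst and Ly96 were not analysed here in muscle.

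Against KPC IL6KO mice 4 partners were higher (all genes 26.4%) and 4 lower (all genes 27.3%) of the 11. Csf1 (log2 FC -1.40), Il34 (-0.71), Syk (-0.70) and Tnfsf12 (-0.82) were lower in KPC, and Hmox1 (1.84), Tlr4 (1.23), Lbp (0.69) and Hp (2.92, FDR = 0.00369) higher. Haptoglobin, the product of Hp, carries the hemoglobin that Cd163 takes up. Hp was at 196, 178, 62.9 and 16.3 CPM in KPC mice and at 19.7, 3.56, 21.1 and 15.6 CPM in KPC IL6KO mice, so KPC 4 lay inside the KPC IL6KO range.

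Other macrophage genes in muscle were described by lists, to be read beside all genes, of which 26.7% rose and 29.0% fell. Genes of a list that were not listed for muscle are left out of its counts. Of 17 further genes of macrophages and myeloid cells none rose in KPC against no tumor and 1 fell, Ptprc, the common leukocyte antigen (log2 FC -0.85, FDR = 0.0300). Their median was -0.12, and the most abundant, the lysozyme gene Lyz2, was not called (log2 FC -0.40, FDR = 0.287). Of 17 genes of resident macrophages 1 rose and 8 fell (median -0.75). The one that rose, the selenium carrier Sepp1, was also the most abundant of the list, at a mean of 149 CPM in no tumor and 269 CPM in KPC muscle (log2 FC 0.85, FDR = 0.00675). The largest fall was in the transcription factor Maf, from a mean of 99.6 to 13.2 CPM (log2 FC -2.92 ± 0.23 SE), a gene that muscle fibres also express. Of 17 genes of lipid-laden and lysosome-rich macrophages 5 rose and 2 fell (median -0.14), led by the cathepsin Ctsl (log2 FC 2.65 ± 0.38 SE) and with Ctsd the most abundant (1.68 ± 0.20). The fatty-acid binding protein Fabp5 fell most (-1.47). The lysosomal proteases are made by muscle fibres too, and the summed level of this list was 2016 to 2147 CPM in no tumor, 3574 to 6565 CPM in KPC and 2009 to 2288 CPM in KPC IL6KO muscle.

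Lists of activation genes went in different directions, and many of their genes were not listed for muscle. Tested were 5 of 14 inflammatory, 6 of 11 alternative activation, 7 of 11 monocyte and 6 of 13 growth factor and chemokine genes. Of 5 genes of inflammatory activation 0 rose and 3 fell (median -2.18), the interferon-induced chemokine Cxcl9 most (log2 FC -2.94), and the most abundant, Cd38, was not called (0.20). Of 6 genes of alternative activation 4 rose and 1 fell (median 1.97). Those that rose included the transglutaminase Tgm2 (2.28) from a mean of 118 to 574 CPM, while the chemokine Ccl24 fell most (-2.77). Tgm2 was counted in whole muscle, and which cells made it was not tested. Of 7 monocyte genes 1 rose and 2 fell (median 0.42). The one that rose, Chil3, is in both lists and was at most at 0.0173 CPM in no tumor mice, so that no fold is given. With so little in no tumor muscle Chil3 could be called only as a rise, and it is counted in both lists. The proteoglycan gene Vcan fell most (-2.64), and the most abundant, the fibronectin gene Fn1, fell from a mean of 88.3 to 21.96 CPM (-2.01). All 8 fibroblast genes fell in these muscles too, and which cells made Vcan and Fn1 was not tested. Of 6 growth factors and chemokines 0 rose and 3 fell (median -0.08), led by Csf1.

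Transcription factors of macrophages and other scavenger receptors also went both ways, as all genes did (26.7% rose and 29.0% fell). Of 14 transcription factor genes 4 rose and 3 fell (median -0.11), with Runx1 rising most, from a mean of 1.67 to 31.6 CPM (log2 FC 4.23 ± 0.57 SE), and the lysosomal regulator Tfeb the most abundant (1.31 ± 0.17). Of 12 scavenger receptors 3 rose and 5 fell (median -0.56), among them the fatty acid transporter Cd36 (1.19) and Stab2 (1.37) higher and Mrc2, a collagen receptor of the same family as Mrc1, lower (-2.51 ± 0.17).

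Markers of other cell types moved in the same muscles, where 26.7% of all genes rose and 29.0% fell. Of 13 neutrophil genes 5 were listed for muscle, of 10 dendritic cell genes 4 and of 8 B cell genes 1. All 8 fibroblast genes fell (median log2 FC -3.85), Col3a1 most (-5.56), while Dcn, the most abundant of them, had a log2 FC of -0.70, with a summed level of 1073 to 1160 CPM in no tumor, 168 to 286 CPM in KPC and 596 to 905 CPM in KPC IL6KO mice. Of 5 neutrophil genes 4 rose and 1 fell. S100a8, which rose most, had at most 6 counts in a no tumor library and went from a mean of 0.0678 to 5.59 CPM, so no fold is given, and Mmp9, the most abundant, fell (-1.26). The 5 genes summed to 2.98 to 4.51, 5.65 to 22.6 and 4.55 to 8.04 CPM. Skeletal muscle genes summed to 153472 to 193104, 129665 to 148911 and 180428 to 194928 CPM, with 1 of 8 called (Acta1 -0.69) and the most abundant, Myh4, at -0.52. Endothelial genes had 0 rises and 3 falls of 9, with the largest fall in Pdpn (-1.10) and Cdh5 the most abundant (-0.24, not called). Dendritic cell genes had 0 and 2 of 4, led by Cd209a (-2.36), and the most abundant, Cd24a, was not called (-0.15). Mast cell genes had 2 and 2 of 6, with Hdc (1.31) and Mcpt4 (-2.08) the largest and Tpsb2 the most abundant (-0.72, not called). Adipocyte genes had 1 and 2 of 9, where the triglyceride lipase gene Pnpla2, the most abundant and also made by muscle fibres, rose from a mean of 381 to 1685 CPM (2.15) and the leptin gene Lep fell most (-2.70). The B cell gene Cd79b fell (-1.89), and Krt18, 1 of 2 epithelial genes (2.65), and the red cell gene Alas2 (2.41) rose, while the mesothelial gene Krt19 was not called. T and NK cell genes and epididymis genes were not listed in muscle. The part of these other cells in the members' differences was not tested.

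Against KPC IL6KO the lists of macrophage genes in KPC muscle had similar counts of calls, again with the same KPC libraries. Their medians differed more, at 0.32 for lysosomal and -0.20 for monocyte genes against -0.14 and 0.42 in the comparison with no tumor. Of all genes 26.4% were higher and 27.3% lower. The further macrophage genes had 0 higher and 2 lower of 17, resident genes 1 and 7 of 17, lysosomal genes 6 and 1 of 17, monocyte genes 2 and 3 of 7, inflammatory genes 0 and 3 of 5 and alternative activation genes 4 and 1 of 6. The largest of these were Fcgr1 (log2 FC -2.15), Fcrls (-3.24), Spp1 (2.86), Chil3 (3.18), Nos2 (-2.47) and Ccl24 (-2.06), with Fabp5 (-1.11) and Vcan (-1.92) falling most in the lysosomal and monocyte lists, and the rise in the resident list was again Sepp1 (0.97). Runx1 (4.10), Maf (-2.85), Cd36 (1.21) and Mrc2 (-2.06) were the largest among the transcription factors and scavenger receptors. Of the other cell types, the largest called differences were S100a8 (3.94), Mmp9 (-1.38), Col3a1 (-4.89), Pnpla2 (2.30), Cd209a (-2.87), Hdc (1.88), Mcpt4 (-2.14), Tek (-1.15), Cd79b (-1.91), Acta1 (-0.97), Krt18 (4.07), Krt19 (2.53) and Alas2 (1.11). Between KPC IL6KO and no tumor muscle none of the listed genes was called by the quasi-likelihood test, and 6 were by the likelihood ratio test and 6 by DESeq2. Of all 12831 genes the likelihood ratio test called 25 higher and 70 lower there, and DESeq2 30 and 63.

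In adipose tissue no gene of any kind was called between KPC and no tumor mice by the quasi-likelihood test (all genes 0%), so the members are given by their values and by how many passed an unadjusted p. Levels of 6 of the 10 markers, Cd68, Cd163, Mrc1, Trem2, Cd14 and Msr1, were higher in all 4 KPC pads than in all 4 no tumor pads (all genes 6.52%). The same 6 had an unadjusted p under 0.05 (all genes 6.26%), with FDRs of 0.225 to 0.291. The median log2 FC of the 10 members was 1.70 (all genes -0.10).

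Among the scavenger and uptake receptors, Msr1 was at 4.34, 10.3, 2.42 and 6.59 CPM in no tumor pads 5 to 8 and at 49.2, 57.4, 29.6 and 38.3 CPM in KPC pads 5 to 8. Its lowest KPC value was well above its highest no tumor value (log2 FC 2.88 ± 0.79 SE, FDR = 0.234). Mrc1 was at 41.2, 106, 24.1 and 64.0 CPM and at 352, 279.6, 152 and 196 CPM, also apart (log2 FC 2.06 ± 0.55 SE, FDR = 0.234). Cd163 was at 14.4, 71.4, 7.49 and 26.5 CPM and at 238, 169.9, 74.5 and 84.6 CPM, where no tumor 6 came close to the lowest KPC pad (log2 FC 2.24 ± 0.75 SE, FDR = 0.291).

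Cd14 was at 7.12, 16.3, 4.93 and 10.96 CPM in no tumor and at 89.8, 43.0, 35.98 and 56.8 CPM in KPC pads (log2 FC 2.52 ± 0.74 SE, FDR = 0.255). Trem2 had the narrowest groups, at 6.30, 6.02, 5.25 and 5.31 CPM in no tumor and at 15.9, 19.5, 17.1 and 16.6 CPM in KPC pads (log2 FC 1.59 ± 0.45 SE, FDR = 0.243). Its SE comes from a fit in which the spread of KPC IL6KO pads is shared.

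Cd68 was at 19.4, 32.6, 16.0 and 14.6 CPM in no tumor pads and at 134, 66.4, 45.3 and 43.9 CPM in KPC pads (log2 FC 1.81 ± 0.46 SE, FDR = 0.225). Gpnmb, its lysosomal counterpart, was at 95.6, 153, 106 and 36.8 CPM and at 272, 94.4, 93.2 and 68.4 CPM. Only KPC 5 was above the no tumor range, and the log2 FC of 0.43 ± 0.70 became -0.20 without that pad. Gpnmb counts were 2.53 to 6.61 times those of Cd68 in no tumor pads and 1.42 to 2.06 times in KPC pads.

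The other 3 markers overlapped between the groups. Adgre1 was at 19.4, 39.2, 12.4 and 23.3 CPM in no tumor and at 30.2, 48.6, 33.8 and 33.8 CPM in KPC pads (log2 FC 0.63 ± 0.56 SE, FDR = 0.684). Csf1r was at 62.3, 133, 42.6 and 63.9 CPM and at 114, 131, 103 and 91.7 CPM (log2 FC 0.54 ± 0.45 SE, FDR = 0.669). For both, no tumor 6 was the highest or the second highest of the 8 pads and the other 3 no tumor pads were the lowest 3. Itgax was at 3.32, 7.23, 3.12 and 4.05 CPM and at 2.39, 4.38, 6.17 and 4.98 CPM, interleaved between the groups (log2 FC 0.02 ± 0.48 SE).

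The likelihood ratio test called 4 of these members higher (Cd68, Mrc1, Cd14 and Msr1, with 1.58% of all genes called higher) and DESeq2 called 5 (the same 4 and Trem2, with 2.15%). With only these groups in the fit 3 members were called higher (all genes 0.991%), and with the epididymis genes as a covariate 1 was (all genes 1.34%). Among the 6 pads high in Gpx5 of these groups, 2 no tumor and 4 KPC, the quasi-likelihood test called 6 members higher (all genes 2.04%). They were Msr1 (log2 FC 3.79, FDR = 0.0217), Cd163 (3.79, FDR = 0.0402), Cd14 (3.32, FDR = 0.0305), Mrc1 (3.00, FDR = 0.0308), Trem2 (1.67, FDR = 0.0266) and Csf1r (1.16, FDR = 0.0435). Cd68 (2.12, FDR = 0.0839) and Adgre1 (1.30, FDR = 0.0588) were not called there. This choice of pads was made after seeing the data and leaves 2 no tumor mice.

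**Figure D3:**
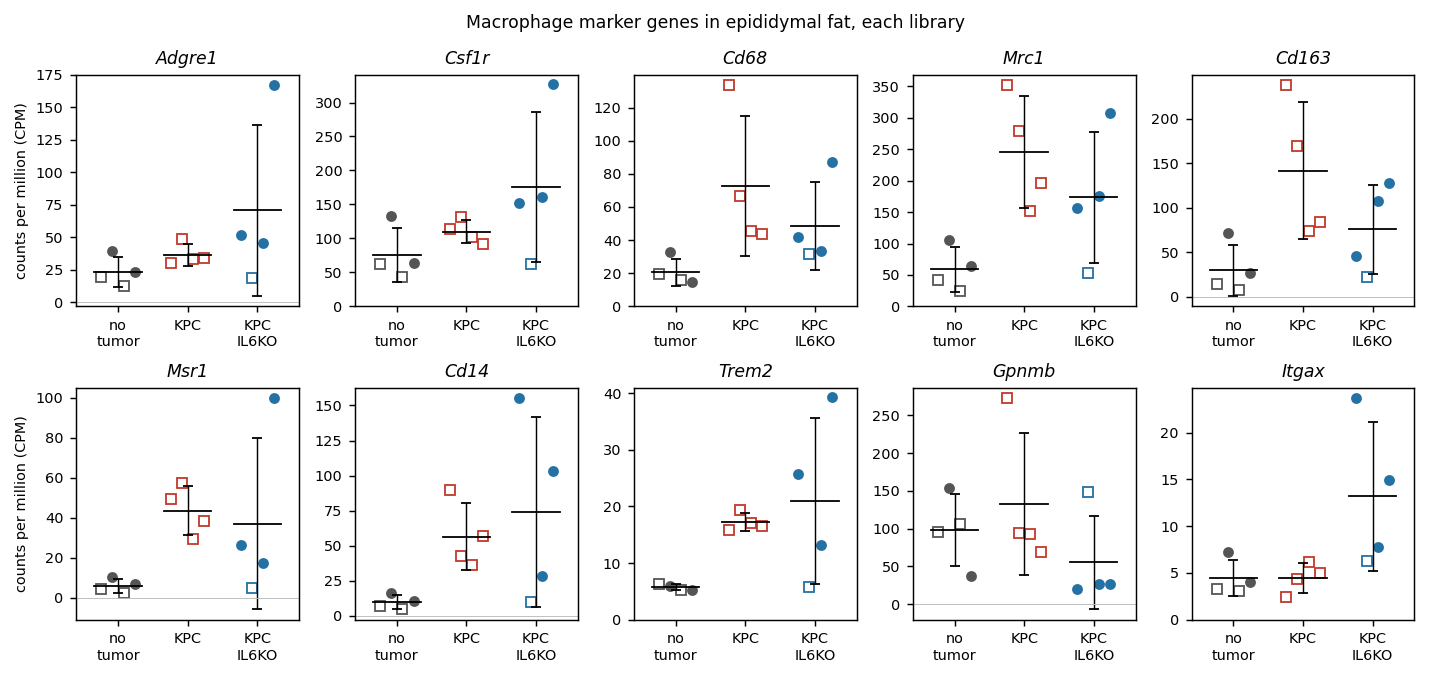
Level of the 10 macrophage marker genes in adipose tissue, in CPM on a linear axis scaled for each gene, for each pad with the mean and SD of each group (horizontal line and error bar). Open squares are pads with Gpx5 over 1000 CPM and filled circles pads under it, and the 2 filled no tumor pads lie above the 2 open ones for 7 of 10 markers, while the open KPC IL6KO pad is the lowest of its group for 9 of 10.

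Inside a group the marker levels differed between pads high and low in Gpx5. In no tumor fat both pads low in Gpx5 were above both pads high in it for 7 of 10 members, Adgre1, Csf1r, Cd163, Mrc1, Cd14, Msr1 and Itgax (all genes 27.9%), with no tumor 6 the highest of the 4 pads for each of these 7. In KPC IL6KO fat the 1 pad high in Gpx5, KPC IL6KO 6, was the lowest of its group for 9 of 10 members (all genes 27.4%), and for Gpnmb it was the highest. All KPC pads were high in Gpx5. By Crisp1 the no tumor pads stood the other way, at 12023 and 14517 CPM in pads 6 and 8 against 1305 and 5754 CPM in pads 5 and 7. The 10 epididymis genes summed to 15828 to 86911 CPM in no tumor, 41302 to 66545 CPM in KPC and 865 to 89801 CPM in KPC IL6KO pads, none of the 10 had an unadjusted p under 0.05 in either comparison with no tumor, and their part in the members' levels was not tested beyond the splits and the covariate fit given.

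KPC IL6KO fat also had higher levels of most markers than no tumor fat, with wide spread and with 0 members called by the quasi-likelihood test (all genes 0%). An unadjusted p under 0.05 was reached by 8 of 10 members, all higher (all genes 8.17%), with FDRs of 0.385 to 0.462, and none of the 10 was free of overlap between the groups (all genes 1.52% higher and 0.489% lower). Cd163 (log2 FC 1.34 ± 0.73 SE, FDR = 0.616) and Gpnmb (-0.83 ± 0.71, FDR = 0.690) were the exceptions. KPC IL6KO 6 lay within the no tumor range for each of the 10 markers.

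Cd14 showed the largest difference, at 155, 9.64, 28.6 and 103 CPM in KPC IL6KO pads 5 to 8 (log2 FC 2.92 ± 0.75 SE, FDR = 0.385). Msr1 was at 26.3, 4.83, 17.1 and 99.8 CPM (log2 FC 2.64 ± 0.78 SE, FDR = 0.394) and Trem2 at 25.7, 5.83, 13.3 and 39.2 CPM (log2 FC 1.88 ± 0.46 SE, FDR = 0.385). Without KPC IL6KO 8 the log2 FC was 1.44 for Msr1, 1.38 for Trem2 and 2.71 for Cd14. In each of the 3 genes pad 6 was inside the no tumor range and the other pads above it. The likelihood ratio test called these 3 (all genes 1.23%) and so did DESeq2 (all genes 1.66%), and Trem2 passed the quasi-likelihood test once KPC IL6KO 6 was left out (log2 FC 2.19, FDR = 0.0454).

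Itgax was at 23.7, 6.24, 7.78 and 14.9 CPM (log2 FC 1.57 ± 0.49 SE, FDR = 0.394), where 3 of 4 pads were above the highest no tumor pad. Adgre1 was at 51.8, 18.6, 46.1 and 167 CPM (log2 FC 1.59 ± 0.57 SE, FDR = 0.448), Csf1r at 152, 62.4, 160.3 and 327 CPM (1.22 ± 0.46, FDR = 0.462) and Mrc1 at 156, 53.8, 175 and 307 CPM (1.56 ± 0.55, FDR = 0.433). KPC IL6KO 8 was the highest pad of its group for these 3 genes, and it was also the pad with most skeletal muscle RNA. Without it the log2 FC was 0.72 for Adgre1, 0.73 for Csf1r and 1.13 for Mrc1. Cd68 was at 42.1, 31.3, 33.1 and 87.4 CPM (log2 FC 1.23 ± 0.45 SE, FDR = 0.450) and Cd163 at 45.7, 21.8, 108 and 128 CPM.

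Gpnmb was at 19.7, 148, 26.2 and 26.8 CPM in KPC IL6KO fat. The 3 pads low in Gpx5 were below every no tumor pad and KPC IL6KO 6 was close to the highest of them, so the pad that was lowest of its group for the other 9 markers was the highest for Gpnmb. Among the 5 pads low in Gpx5 of these groups, 2 no tumor and 3 KPC IL6KO, no member was called (all genes 0%). The largest differences there were Cd14 (log2 FC 2.80 ± 0.79 SE), Msr1 (2.45 ± 0.87), Trem2 (2.17 ± 0.54) and, downward, Gpnmb (-1.98 ± 0.59), with an FDR of 0.709 for each.

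Set directly against each other, the tumor groups gave 0 called members in fat (all genes 0%). Itgax was the one member with an unadjusted p under 0.05 (log2 FC -1.56 ± 0.49 SE, FDR = 0.664), in a direction in which 5.48% of all genes had such a p. It was also the one member without overlap, at 2.39 to 6.17 CPM in KPC and 6.24 to 23.7 CPM in KPC IL6KO pads, and lower in KPC (all genes 3.69%). For Adgre1 the log2 FC was -0.95 ± 0.56 SE, for Csf1r -0.68 ± 0.45, for Cd163 0.90 ± 0.72, for Cd68 0.58 ± 0.45 and for Gpnmb 1.26 ± 0.71. Mrc1 (0.50 ± 0.53), Msr1 (0.24 ± 0.73), Cd14 (-0.39 ± 0.70) and Trem2 (-0.28 ± 0.44) had values between these. Without KPC IL6KO 8 Adgre1 was at -0.08, Csf1r at -0.19, Msr1 at 1.44 and Trem2 at 0.21, so the size of these differences, and the sign for Trem2, rested on that pad.

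**Figure D4:**
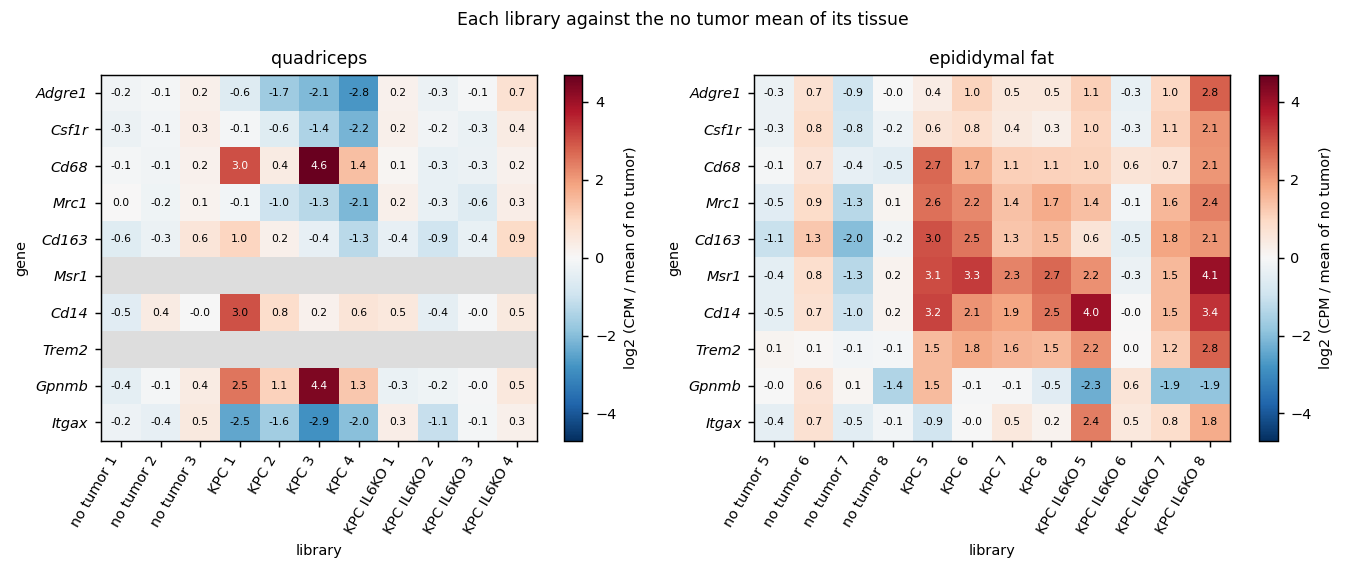
Level of each marker gene in each library as the log2 ratio of its CPM to the no tumor mean of that tissue, with rows for genes and columns for mice. Grey marks Trem2 and Msr1 in quadriceps. Cd68 and Gpnmb stand out in KPC 1 and KPC 3 of quadriceps, and KPC IL6KO 6 of adipose tissue stays near the no tumor mean for each marker.

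Per kilobase of exon, no tumor fat held most Cd68 (16.4 CPM per kb), Gpnmb (15.02), Csf1r (13.1), Mrc1 (9.24), Adgre1 (7.29), Cd14 (5.67) and Cd163 (5.49), and much less Trem2 (1.16), Msr1 (0.934) and Itgax (0.922). The neighbours Cd163 and Trem2 were the one pair in this order without overlap between pads. In KPC fat the order was Cd68 (57.6 CPM per kb), Mrc1 (38.4), Cd14 (32.6), Cd163 (25.95), Gpnmb (20.3), Csf1r (19.0), Adgre1 (11.3), Msr1 (6.88), Trem2 (3.49) and Itgax (0.933). Neighbours overlapped between pads down to Csf1r and did not from Csf1r on. Cd14 lay above Gpnmb, Csf1r and Adgre1 in all 4 KPC pads, whereas Cd163 lay above Adgre1 in all 4, above Gpnmb in 3 and above Csf1r in 2.

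Partners of the members in fat had 4 of 13 higher at an unadjusted p under 0.05 in KPC (all genes 6.26%) and 5 of 13 in KPC IL6KO (all genes 8.17%) against no tumor. In KPC these were Hmox1 (log2 FC 3.67 ± 1.08 SE), Hp (2.52 ± 0.67), Tyrobp (1.31 ± 0.52) and Tlr4 (1.30 ± 0.49), with FDRs of 0.233 to 0.360. Hp was at 556, 1276, 248 and 536 CPM in no tumor, at 6526, 4216, 2581 and 1707 CPM in KPC and at 2156, 1785, 5941 and 6082 CPM in KPC IL6KO pads, so both tumor groups lay above the no tumor range. Hmox1 was at 11.9, 36.6, 8.97 and 28.8 CPM in no tumor and at 776, 139.8, 94.0 and 90.4 CPM in KPC pads. The Csf1r ligands Csf1 (log2 FC 0.31, FDR = 0.664) and Il34 (-0.12, FDR = 0.951) did not pass in KPC, nor did Apoe (0.29), Hcst (0.56), Ly96 (0.44), Syk (-0.08), Lbp (-0.01), Itgb2 (1.60, FDR = 0.447) or Tnfsf12 (-0.03).

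Of 21 further genes of macrophages and myeloid cells 11 were higher in KPC fat (all genes 6.26%) and 19 in KPC IL6KO fat (all genes 8.17%) at an unadjusted p under 0.05. Their medians were 1.31 and 1.58 (all genes -0.10 and -0.03). Their summed level was 334 to 967 CPM in no tumor, 1326 to 1917 CPM in KPC and 464 to 4065 CPM in KPC IL6KO pads. Resident macrophage genes had 9 of 18 higher in either tumor group (medians 1.13 and 1.31), and the growth factors and chemokines had 8 of 13 higher in either (2.68 and 1.70). The chemokine Ccl6 was the most abundant of these, at a mean of 39.8 CPM in no tumor, 434 in KPC and 363 in KPC IL6KO fat (log2 FC 3.45 ± 0.80 and 3.19 ± 0.79 SE). By the same measure monocyte genes had 5 and 8 of 11 higher (medians 1.37 and 1.99), inflammatory activation genes 4 and 6 of 11 (0.76 and 1.22), alternative activation genes 3 and 3 of 9 (1.24 and 1.28), transcription factors 3 and 4 of 15 (0.20 and 0.30) and other scavenger receptors 3 and 8 of 15 (0.74 and 0.77). The lysosome-rich list had 2 and 1 of 19 (medians 0.17 and 0.27). Lower at an unadjusted p under 0.05 in KPC fat were 1 gene each of the resident, inflammatory, alternative activation and transcription factor lists, and 0 of these lists in KPC IL6KO fat. Of all 16962 genes 1000 were lower in KPC fat by this measure and 199 in KPC IL6KO fat. The most abundant genes of the lists had log2 FCs in KPC and KPC IL6KO fat of 1.31 and 1.47 for Lyz2, 1.31 and 0.47 for Sepp1, -0.27 and -0.44 for the lysosomal cholesterol carrier Npc2, -4.31 and 1.10 for Ptgs2, 0.61 and 1.28 for Tgm2, -2.04 and -0.53 for Cebpa and -0.88 and -0.34 for Cd36, with FDRs of 0.288 to 0.897. These 2 comparisons share the no tumor libraries. All 9 adipocyte genes had a log2 FC below 0 in KPC fat (median -1.39), and pads differed in epididymis RNA. Which cells made the genes of these lists was not tested.

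Other cell types in fat were described the same way, beside the same shares of all genes (6.26% higher in KPC and 8.17% in KPC IL6KO fat). At an unadjusted p under 0.05 neutrophil genes had 6 of 8 higher in KPC and 4 of 8 in KPC IL6KO fat, epithelial genes 5 and 4 of 8, mesothelial genes 2 and 2 of 6, dendritic cell genes 0 and 2 of 10, T and NK cell genes 0 and 1 of 10, B cell genes 0 and 1 of 7, mast cell genes 1 and 1 of 7, fibroblast genes 1 and 1 of 8, and endothelial genes 0 of 9 in both. Lower in KPC fat were 2 mast cell genes, 1 T and NK cell gene and 1 fibroblast gene, and in KPC IL6KO fat none of these. The log2 FC of all 7 B cell genes was below 0 in KPC fat (median -1.29), and the medians of T and NK cell genes (-0.76) and mast cell genes (-0.71) were below 0 there too. The most abundant genes of the lists were Ltf, Krt18, Krt19, Cd24a, Klrb1c, Jchain, Kit, Col3a1, Pecam1, Fabp4 and Myh4, and none of them passed a Benjamini-Hochberg FDR of 0.05. No gene in fat did in the quasi-likelihood test, where the smallest FDR against no tumor was 0.0704 in KPC and 0.235 in KPC IL6KO. This therefore does not set these genes apart or show that they were unchanged. Adipocyte genes had 3 of 9 lower in KPC and 0 lower in KPC IL6KO fat. Skeletal muscle genes had 5 of 8 lower in KPC and 3 of 8 higher in KPC IL6KO fat, and the red cell gene Alas2 was higher in KPC fat (log2 FC 1.41) and did not pass in KPC IL6KO fat (0.23). Adipocyte genes summed to 1733 to 28739, 2512 to 11586 and 4899 to 18470 CPM in the 3 groups, a wide range within each, and the part of this makeup in the members' levels was not tested.

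The difference between the tissues was tested itself, as the FC in quadriceps less the FC in adipose tissue, over 8 members in both tables. For KPC against no tumor 3 members differed, all lower in quadriceps than in fat (all genes 18.8%), and none was higher (all genes 18.1%). Mrc1 fell in muscle and had a log2 FC of 2.06 in fat (difference -3.11 ± 0.71 SE on the log2 scale, FDR = 0.00201). Adgre1 (-2.28 ± 0.75, FDR = 0.0221) and Itgax (-2.25 ± 0.67, FDR = 0.0122) fell in muscle while their log2 FC in fat was 0.63 and 0.02. These 3 stayed called without any 1 of the 23 libraries, with a highest FDR of 0.0467 for Adgre1. The likelihood ratio test called 1 member higher (all genes 18.5%) and 5 lower (all genes 19.8%), and voom 0 higher (all genes 16.6%) and 5 lower (all genes 20.9%).

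The other 5 were not called between tissues, with differences of -2.19 for Cd163 (FDR = 0.0797), -1.50 for Csf1r (FDR = 0.0700), 2.42 for Gpnmb (FDR = 0.0753), 1.28 for Cd68 (FDR = 0.270) and -0.99 for Cd14 (FDR = 0.447). Without adipose no tumor 6 Cd163 (-3.06, FDR = 0.0123) and Csf1r (-1.92, FDR = 0.0197) were called, and without adipose KPC 5 Gpnmb was (3.04, FDR = 0.0318). Csf1, the ligand of Csf1r, differed (-1.99 ± 0.38 SE, FDR = 0.000464), with a log2 FC of -1.56 in muscle and 0.31 in fat.

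For KPC against KPC IL6KO 1 member differed between tissues and was higher in quadriceps (all genes 17.2%), Cd68 (2.53 ± 0.86 SE, FDR = 0.0292), and none was lower (all genes 14.4%), whereas voom called none higher (all genes 14.8%) and 1 lower (all genes 16.4%). The call was lost without quadriceps KPC 3 (1.36, FDR = 0.145) and without any of 6 other libraries, adipose KPC IL6KO 8 among them (2.09, FDR = 0.0717). For KPC IL6KO against no tumor no member differed between tissues (all genes 0%), and the largest difference, Cd14 at -2.70 ± 1.00 SE, had an FDR of 0.517.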

How the data were processed

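RNA from quadriceps of 11 mice and epididymal fat of 12 mice was sequenced, with 1 library a mouse and tissue and no sample number shared by muscle and fat, and groups were taken from the sample titles. The authors aligned the reads with STAR to mm10, counted uniquely mapped reads with featureCounts 1.5.1 (Subread) and deposited the raw count per gene for each library, 1 table per tissue, from which genes with low counts had been left out by a rule not given in the sources used here. The submitters' notes also name FastQC and edgeR 3.12.1. Library kits are named differently in the study's methods and the sample records, and 1 no tumor muscle sample removed by the authors was not analysed here.

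Counts were analysed in R 4.3.3 with edgeR 4.0.16 (TMM, filterByExpr, quasi-likelihood F test), the 3 groups of a tissue in 1 fit. Calls needed a Benjamini-Hochberg FDR, taken over all genes, no higher than 0.05 and an FC no smaller than 1.5. SE is the log2 FC divided by the root of F. The tissue difference used all 23 libraries and 12599 shared genes. DESeq2 1.42.0, edgeR's likelihood ratio test and newer quasi-likelihood form, limma 3.58.1 (voom), only the groups compared, no filter, 10 or more counts in each library, RLE, library size alone, a replicate block, an epididymis covariate in fat and each library left out in turn were alternatives. Splits by Gpx5 (1000 CPM) and leaving out KPC 1 and 3 together were added after seeing the data. Figures were drawn with Python 3.11.15 and matplotlib 3.10.9. The fits were tested on simulated data.

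The members and gene lists were chosen with earlier results of these data known, so list counts are descriptions. Named genes were all members and partners, the most abundant gene of each other list, its called gene with the largest rise and fall in KPC muscle, and Il6. Other genes named, such as Fcrls or Krt19, followed the same rule, and Gpx5 was chosen after its values were seen. Gene length was the union of exons. Replicates are separate mice. Same-numbered libraries were checked for deviating together: correlations ran from -0.586 to 0.552, and 8 of 22 pairs were over 0.1, so the numbers were not treated as pairs. No 2 libraries of a group agreed within sampling noise (chi-square per degree of freedom at least 28.9). Intervals from 3 counts cover counting error only.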

Additional observations from a re-analysis of the deposited data

Results flagged for a closer look

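Cd14 in quadriceps was at 14.6 CPM in KPC 1, far above the other 3 KPC mice (2.11 to 3.29 CPM). In adipose tissue Gpnmb was at 272 CPM in KPC 5 (other KPC pads 68.4 to 94.4 CPM) and at 148 CPM in KPC IL6KO 6 (other KPC IL6KO pads 19.7 to 26.8 CPM). These 3 values passed Dixon's 95% limit among 46 groups of 4 mice, of which chance alone passes about 1 in 20. KPC 1 was also the quadriceps library in which Adgre1, Csf1r, Mrc1 and Cd163 were highest among KPC mice, and KPC IL6KO 6 was the one KPC IL6KO pad high in Gpx5.

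The difference between KPC and no tumor mice was itself different between tissues for Mrc1 (-3.11 on the log2 scale, quadriceps less adipose), Adgre1 (-2.28) and Itgax (-2.25), in the edgeR quasi-likelihood test of that difference. For KPC against KPC IL6KO it was different for Cd68 (2.53). Muscle and fat libraries carry different sample numbers and were counted in separate tables, so the tissue cannot be told apart from the handling of each set.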

How the results depend on the processing

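Among values of single genes under another setting, 1647 kept direction and side of the threshold, 45 lost the call, 50 gained it and 47 changed sign. The replicate numbers were not treated as pairs in the main fit. With a replicate block Cd14 in quadriceps was not called against no tumor (1.25, FDR = 0.103) or KPC IL6KO (1.13, FDR = 0.0856), Cd68 against KPC IL6KO was 2.62, Cd68 in KPC IL6KO against no tumor was 0.11 in place of -0.044, and the other members kept their calls.

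Signs changed mainly where the main value was near 0. In KPC IL6KO against no tumor quadriceps Itgax was 0.000148 with DESeq2, 0.047 with the newer quasi-likelihood form, 0.025 with only the groups compared and 0.0063 with RLE, Cd163 was 0.012, 0.017 and 0.0078 under the last 3, and Gpnmb was -0.022 with library size alone. In KPC against no tumor quadriceps Cd163 was -0.056 with library size alone and -0.30 without KPC 1 and 3. In KPC against KPC IL6KO fat the epididymis covariate gave 1.31 for Cd14 and 0.28 for Trem2.

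In quadriceps, only the groups compared left 4 members called in KPC against KPC IL6KO, 2 of them lower (all genes 24.9% higher and 27.7% lower). In fat, KPC against no tumor had 5 members called by DESeq2 (all genes 2.15%), 4 by the likelihood ratio test (all genes 1.58%), 3 with only the groups compared (all genes 0.991%), 1 with the covariate (all genes 1.34%) and 6 among pads high in Gpx5 (all genes 2.04%), all higher. KPC IL6KO against no tumor had 3 higher by DESeq2 (all genes 1.66%) and 3 by the likelihood ratio test (all genes 1.23%). Over the lists other than the members DESeq2 and the likelihood ratio test called 43 and 39 genes in KPC, 32 and 21 in KPC IL6KO and 11 and 10 in KPC against KPC IL6KO fat. They called 6 and 6 in KPC IL6KO against no tumor quadriceps, where the quasi-likelihood test called 0. Of all 16962 genes in fat DESeq2 called 364 higher and 221 lower in KPC, 281 and 4 in KPC IL6KO, and 19 and 106 in KPC against KPC IL6KO. The likelihood ratio test called 268 and 145, 209 and 0, and 7 and 59 there. Of all 12831 genes in KPC IL6KO against no tumor quadriceps DESeq2 called 30 higher and 63 lower, and the likelihood ratio test 25 and 70. Between tissues voom called 5 members in KPC against no tumor, 5 lower (all genes 20.9%), and 0 higher (all genes 14.8%) and 1 lower (all genes 16.4%) against KPC IL6KO, while the likelihood ratio test called 7 in all, 6 for KPC against no tumor, 1 higher (all genes 18.5%) and 5 lower (all genes 19.8%). The cause was not tested.

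Leaving out 1 library at a time, quadriceps Cd163 ran from -0.32 to 0.55 in KPC against no tumor and from -0.32 to 0.67 against KPC IL6KO. In KPC IL6KO against no tumor quadriceps the ranges were -0.15 to 0.053 for Cd68, -0.023 to 0.34 for Adgre1, -0.047 to 0.44 for Cd14, -0.052 to 0.26 for Csf1r, -0.20 to 0.10 for Mrc1, -0.16 to 0.27 for Gpnmb, -0.52 to 0.39 for Cd163 and -0.18 to 0.24 for Itgax. In KPC against KPC IL6KO quadriceps 4 to 7 members were called, 4 without KPC IL6KO 4, and 2 to 4 were lower. In fat Gpnmb ran from -0.20 to 0.74 and Itgax from -0.18 to 0.36 in KPC against no tumor. In KPC IL6KO against no tumor fat 0 to 1 were called, all higher, with the 1 reached without KPC IL6KO 6. Against KPC IL6KO fat Msr1 ran from -0.13 to 1.44, Cd14 from -0.76 to 0.26 and Trem2 from -0.59 to 0.21. Between tissues the members had 3 to 7 calls over all comparisons together, 7 without quadriceps KPC 1 and 3 without quadriceps KPC 3. A member called in more than 1 comparison is counted in each. For KPC against no tumor that was 3 to 5, with 0 to 1 higher and 3 to 5 lower, and for KPC against KPC IL6KO 0 to 2, with 0 to 1 higher and 0 to 2 lower. The share of all genes called was not taken in the runs with a library left out, so their counts of members are descriptions. Depth limits Itgax in KPC muscle, with 5 to 11 counts. In fat the spread between pads was wide (biological coefficient of variation 63.5%), and how far depth limits the calls there was not tested.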
